A study of Mus musculus with 6 samples.

Results

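In lung fibroblasts, 1441 regions of open chromatin were listed by the authors as more accessible on 32 kPa silicone than on 0.2 kPa silicone without being listed for plastic. They were chosen by their listing in a pair of comparisons: each was a row of the deposited table of 32 kPa against 0.2 kPa, and its interval overlapped no row of the deposited table of plastic against 0.2 kPa. The 32 kPa table held 2121 regions, so these were the larger share of it, and the other 680 overlapped a region of the plastic table. The plastic table held 2114 regions, of which 1433 overlapped none of the 32 kPa table. Both comparisons used the same 0.2 kPa libraries. Since the levels on 0.2 kPa, 32 kPa and plastic all bear on the choice, the differences between cultures at these regions are given as a description, with no test.

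Lung fibroblasts positive for GFP were sorted from Col1a1-GFP transgenic mice, in which the green reporter marks cells with an active type I collagen promoter. All cultures, the soft one included, carried this transgene and had the same collagen I coating (0.1 mg/mL), the same density at seeding (5000 cells per cm2) and the same time in culture (8 days). They differed in the surface: 0.2 kPa PDMS (a silicone, the soft surface), 32 kPa PDMS, or tissue-culture plastic, which is not a silicone and whose stiffness the labels do not give. Each culture had 2 libraries of 50000 cells, and the sources used here name neither the animals behind each library nor their age.

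Omni-ATAC-seq cuts open chromatin with a transposase, so a region's read count follows how accessible its DNA is, mostly at promoters and enhancers. Fibroblasts sense the stiffness of the surface they grow on through integrins and the actin cytoskeleton. On stiff surfaces the coactivators YAP and TAZ can enter the nucleus and act through TEAD proteins, and MRTF acts with SRF on genes of the contractile apparatus. In fibrotic lung, stiffness, TGF-beta and matrix-producing myofibroblasts are known to go together.

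Promoters were the most common location of the 1441 regions. The 7 shown are a selection of those that the results below return to. They include every stretch read that held TEAD or RUNX letters. Each line gives the part of the 250 bases before the start site that lay inside the listed region, 5′ to 3′ on the gene's strand, from RefSeq (GRCm38.p6). Capitals mark matches on either strand to the SP/KLF letters GGGCGGG, the TEAD letters GGAATG and the RUNX letters TGTGGT.
Wwc2 (chr8:47990545-47990750, minus strand): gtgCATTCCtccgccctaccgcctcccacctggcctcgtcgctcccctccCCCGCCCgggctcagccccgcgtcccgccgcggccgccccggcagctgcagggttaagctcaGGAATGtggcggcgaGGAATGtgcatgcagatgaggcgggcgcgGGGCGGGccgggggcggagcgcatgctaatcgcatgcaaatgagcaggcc
Crim1 (chr17:78199998-78200247, plus strand): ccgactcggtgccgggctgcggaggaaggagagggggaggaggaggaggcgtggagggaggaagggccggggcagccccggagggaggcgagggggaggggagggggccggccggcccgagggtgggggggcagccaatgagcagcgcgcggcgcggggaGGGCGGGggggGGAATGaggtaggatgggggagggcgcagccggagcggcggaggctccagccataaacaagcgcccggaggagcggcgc
Ccnd3 (chr17:47593293-47593466, plus strand): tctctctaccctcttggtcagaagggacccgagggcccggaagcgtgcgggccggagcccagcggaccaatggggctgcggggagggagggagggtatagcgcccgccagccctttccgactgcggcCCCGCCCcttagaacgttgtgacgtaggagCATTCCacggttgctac
Mmp14 (chr14:54431402-54431597, plus strand): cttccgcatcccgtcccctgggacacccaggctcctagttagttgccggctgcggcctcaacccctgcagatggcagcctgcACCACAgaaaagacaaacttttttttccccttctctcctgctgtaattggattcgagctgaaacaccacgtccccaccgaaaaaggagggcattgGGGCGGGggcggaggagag
Tgfbr1 (chr4:47352972-47353221, plus strand): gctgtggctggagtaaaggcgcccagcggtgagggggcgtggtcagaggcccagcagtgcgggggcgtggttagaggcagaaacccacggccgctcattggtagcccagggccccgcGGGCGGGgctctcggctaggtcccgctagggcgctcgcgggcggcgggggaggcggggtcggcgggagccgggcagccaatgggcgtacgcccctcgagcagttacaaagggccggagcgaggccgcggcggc
Leprot (chr4:101647533-101647782, plus strand): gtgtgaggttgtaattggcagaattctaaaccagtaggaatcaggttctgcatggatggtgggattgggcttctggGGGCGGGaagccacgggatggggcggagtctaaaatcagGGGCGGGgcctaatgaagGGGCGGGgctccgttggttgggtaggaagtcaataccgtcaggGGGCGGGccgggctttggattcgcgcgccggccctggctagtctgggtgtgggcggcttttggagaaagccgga
Mybbp1a (chr11:72441195-72441326, plus strand): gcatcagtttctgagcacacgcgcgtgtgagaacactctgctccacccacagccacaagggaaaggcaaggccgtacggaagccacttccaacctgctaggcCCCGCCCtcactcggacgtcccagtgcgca
The stretches of Wwc2, Crim1 and Ccnd3 held TEAD letters, 3 matches at Wwc2 and 1 at each of the other two. Counts among the 7 reflect the selection and are not shares of the listed promoters. Of 500 promoter windows compared below, TEAD letters were in 10.0%, RUNX letters in 11.2% and SP/KLF letters in 61.4%. The Twist1 stretch, not printed, held no match to any of these letters. Of the 7, Mmp14 was the one with RUNX letters, and each held at least 1 SP/KLF match, Leprot with 4 holding the most. GC content ran from 58.7% at Mmp14 to 77.6% at Crim1. A match is a run of letters and no evidence that a factor was bound.

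Levels were read as the authors' means over the libraries of a culture, in log2 normalised reads, where a difference of 1 is 2 times. On 0.2 kPa the lowest, median and highest level of the 1441 regions were 3.24, 4.89 and 7.88. On 32 kPa they were 4.97, 6.0 and 8.91. On plastic, read at 1439 regions from the deposited table of plastic against 32 kPa, they were 3.90, 5.72 and 8.86. Plastic therefore lay between the silicones, and nearer to 32 kPa. The 32 kPa level exceeded the soft level by a median of 1.1 (quartiles 1.04 and 1.2, highest 2.11) in the authors' deposited table, which lists no fold under 1. The plastic level exceeded the soft level by a median of 0.86 (quartiles 0.74 and 0.95).

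Most of these regions thus also had a higher mean level on plastic than on 0.2 kPa, by less than the authors' limit. The 0.2 kPa libraries also chose the regions, and a low soft level favours both differences. Unlisted regions had no 0.2 kPa level to set beside the shares below. Plastic exceeded the soft culture by at least 0.5 at 1386 of the 1439 regions (96.3%) and by 0.90 to 0.99 at 392 (27.2%). At 194 regions (13.5%) the difference reached 1, although the regions were not in the plastic list. It was under 0.5 at 53 regions (3.68%). Adding the fold of 32 kPa over soft to that of plastic over 32 kPa, which avoids comparing levels of intervals with different ends, put 166 regions at 1 or more and 46 under 0.5, and none had plastic at or below 0.2 kPa.

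**Figure D1:**
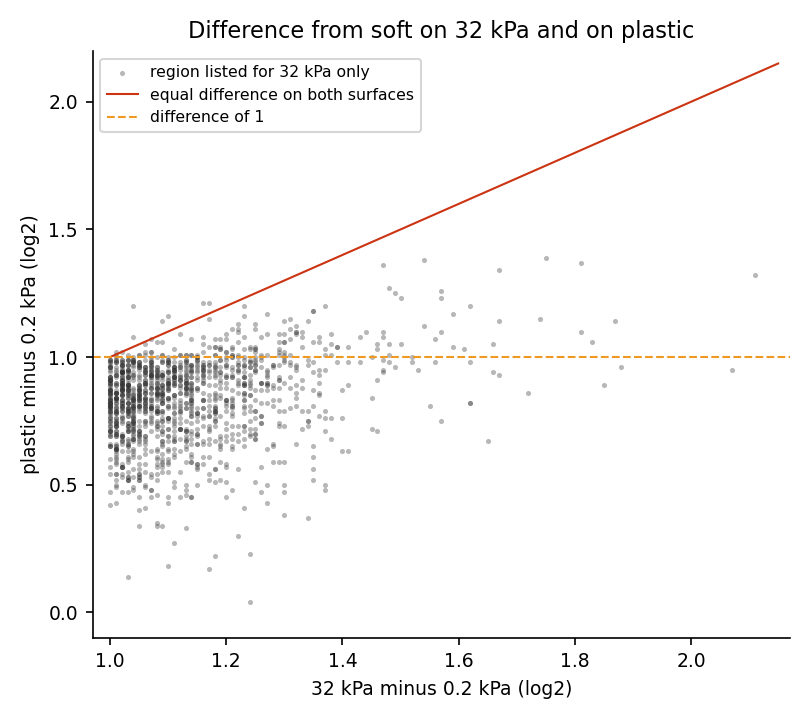
Difference from 0.2 kPa on 32 kPa (horizontal axis, log2) and on plastic (vertical axis, log2, the folds of the 2 tables added) at 1439 regions listed for 32 kPa only, 1 point per region. Nearly all points lie below the line of equal difference and most lie between 0.5 and 1 on the plastic axis, with 166 at or above the dashed line at 1.

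Read at a single interval in the deposited table of plastic against 32 kPa, plastic was lower than 32 kPa at 1429 of 1439 regions (99.3%), higher at 7 and equal at 3. The median difference was -0.27 (quartiles -0.40 and -0.17). It was small beside the difference from soft: plastic lay within 0.1 of 32 kPa at 139 regions (9.66%) and at least 0.5 below it at 210 (14.6%). At the 678 matched regions listed for both surfaces the median was -0.02, at the 1427 listed for plastic only it was 0.29, and at 13811 unlisted regions that reached the same lowest level on 32 kPa (4.97) it was -0.04. Of 17026 regions of that table at or above 4.97 on 32 kPa, 8.47% overlapped one of the 1441. Among the unlisted regions 2.61% were at least 0.5 lower on plastic. The choice itself favours a high 32 kPa level and a low plastic level, so the direction is part of how the regions were chosen.

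**Figure D2:**
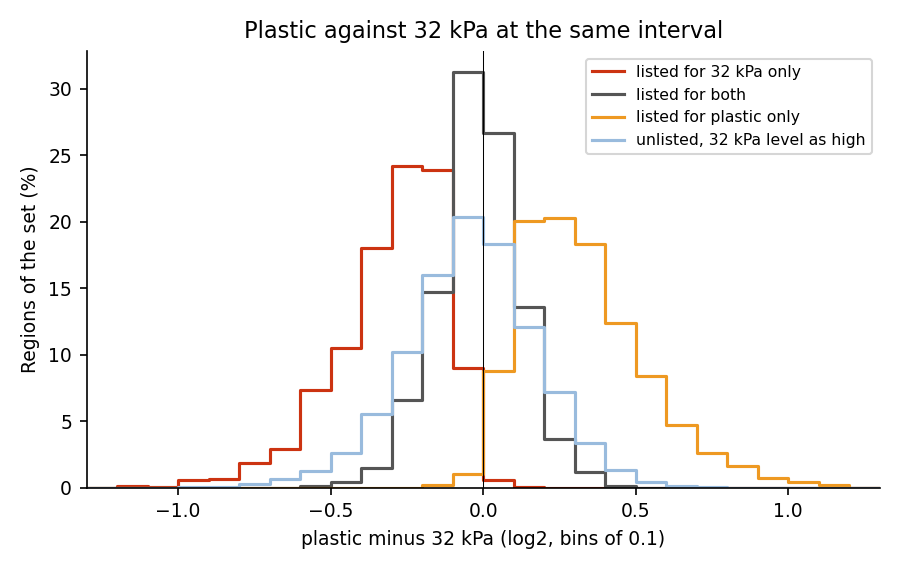
Share of regions (vertical axis, %) by plastic minus 32 kPa (horizontal axis, log2, bins of 0.1) for the regions listed for 32 kPa only, for both surfaces, for plastic only, and for unlisted regions at or above 4.97 on 32 kPa. The regions listed for 32 kPa only lie left of 0 with a median of -0.27, and those listed for plastic only lie right of it with a median of 0.29.

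The authors' deposited table of plastic against 32 kPa has an FDR of 1 at every region, so 0 of its 64217 regions (0%) passed an FDR of 0.05 in DiffBind, the tool the submitters name. Its unadjusted p was under 0.05 at 37 of the 1439 regions (2.57%), all lower on plastic. In either direction the p was under 0.05 at 370 of all 64217 regions (0.576%) and at 76 of the 17026 regions at or above 4.97 on 32 kPa (0.446%). Nothing is read from that higher share, because the 32 kPa libraries of this comparison also chose the regions.

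Many regions lay close to the limits that chose them. The fold of 32 kPa over soft was within 0.02 of 1 at 257 regions (17.8%), 38 had a fold of 1.5 or more, and the authors' FDR was 0.045 to 0.05 at 89 (6.18%). Just inside the 32 kPa limit, at a fold of 1.0, were promoters of Ripk2 (a kinase of innate immune signalling), Xpo1 (the nuclear export receptor), Gatad2a (a subunit of the NuRD remodelling complex) and Mgat1 (an enzyme of N-glycan synthesis). Just under a plastic difference of 1 were, among others, the promoters of Leprot, Prkra, Myh9, Arnt and Paip2b, at 0.99 each by added folds. Paip2b was at 0.91 from the levels. Regions of Nuak2 and Ski outside promoters also stood at 0.99. On the other side of the plastic limit, 80 of the 680 regions listed for both had a plastic fold within 0.02 of 1, and 297 (43.7%) had one within 0.1 of it. At the Leprot promoter, the strongest of all, the means were 7.88 on 0.2 kPa, 8.91 on 32 kPa and 8.86 on plastic, so the stiff cultures were 0.05 apart and the region was listed for 1 of them.

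The largest differences between 32 kPa and soft stood at weak regions outside promoters. The 10 highest folds, 1.74 to 2.11 in the authors' deposited table, were 5 intergenic regions, 4 introns and 1 at a transcript end, and none was a promoter. The highest lay 493 kb before Vstm2a (chr11:15765026-15765300), at 3.24 on 0.2 kPa, 5.35 on 32 kPa and 4.55 on plastic. Next was a region 63.9 kb before Nt5c1b (chr12:10305897-10306220), at 3.41, 5.47 and 4.35 in the same order. An intron of Gpc6, a heparan sulphate proteoglycan of the cell surface, was at 3.34, 5.15 and 4.72. At these regions plastic also lay above soft, by 0.89 (Lingo4) to 1.39 (Eea1) by added folds, and the same soft mean enters both differences.

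At 7 of the 10 regions where plastic was furthest below 32 kPa, it was also within 0.37 of the soft level by added folds. At the Ston1 promoter (chr17:88625969-88626113), a gene for an adaptor of endocytosis, the means were 3.87 on 0.2 kPa, 5.10 on 32 kPa and 3.90 on plastic, the widest gap between the stiff cultures (1.2). At the Mybbp1a promoter, whose gene encodes a nucleolar MYB-binding protein, they were 3.87, 5.20 and 4.23. A region in an intron of Pip5k1a, nearest the start of Psmd4, a ubiquitin receptor of the proteasome, was at 4.29, 5.53 and 4.51. Intergenic regions near Sp3, a factor that binds GC-rich promoters, and Trib1, a pseudokinase, were at 4.31, 5.53 and 4.59 and at 4.34, 5.44 and 4.52. The lowest unadjusted p among these 10 was 0.00447, before Vps13d, in the authors' deposited table. At these regions plastic was 0.92 to 1.2 below 32 kPa.

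At the other end, 7 regions were higher on plastic than on 32 kPa. The largest such difference was 0.16, in an intron of Ankmy2 (4.63 on 0.2 kPa and 5.67 on 32 kPa). Its plastic level of 5.89 is of an interval with other ends, where 32 kPa was at 5.73. Promoters of Smg9, Lrrc57, Mib1 and Rom1 differed by 0.04 to 0.06. Smg9 acts in nonsense-mediated decay and Mib1 is a ubiquitin ligase of Notch signalling. The plastic level of Smg9 was likewise read from an interval with other ends, and its difference from soft was 1.56 from the levels but 1.16 from added folds.

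The 8 lowest FDRs, 0.000232 to 0.000586 in the authors' deposited table, belonged to strong regions with modest folds of 1.0 to 1.26. They were led by an intron region of Chd9, a chromatin remodeller, at 6.72 on 0.2 kPa, 7.94 on 32 kPa and 7.69 on plastic. The Sertad2 promoter was at 7.35, 8.49 and 8.27, and the promoter of Ing1, a reader of histone methylation, at 6.70, 7.86 and 7.62. A region 7.09 kb before Serpinh1, the collagen chaperone, was at 6.37, 7.63 and 7.24. Across the 1441 regions, the level on 32 kPa and the fold over soft had a Spearman rho of -0.52, given as a description since both hold the same 32 kPa mean.

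By location, 640 of the regions (44.4%, exact 95% interval 41.8 to 47%) were annotated as promoters, 26.9% as introns and 24.4% as intergenic. These shares were close to those of the 13811 unlisted regions, at 43.3%, 26.0% and 25.9%. Of the regions listed for both, 47.4% were promoters and 24.6% intergenic. Of the regions listed for plastic only, 35% were promoters and 32.2% intergenic. The plastic-only regions had a median of 5.34 on 32 kPa, against 6.0 at those listed for 32 kPa only. They were not held to the level of 4.97, and the part of level in these shares was not tested. Of the regions listed for 32 kPa only, 8.05% (6.7 to 9.58%) lay beyond 100 kb of any start site. The share was 11% of those listed for both, 16.0% of the plastic-only regions and 9.12% of the unlisted ones. Repeats held 4.58% (3.56 to 5.79%), against 7.5% of the regions listed for both, 11.9% of those for plastic only and 7.0% of the unlisted. Intervals cover the counting of regions only, and regions are not replicates. The promoter share moved with the limits: it was 66.4% at an FDR under 0.01 and 19.8% at a fold of at least 1.2.

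**Figure D3:**
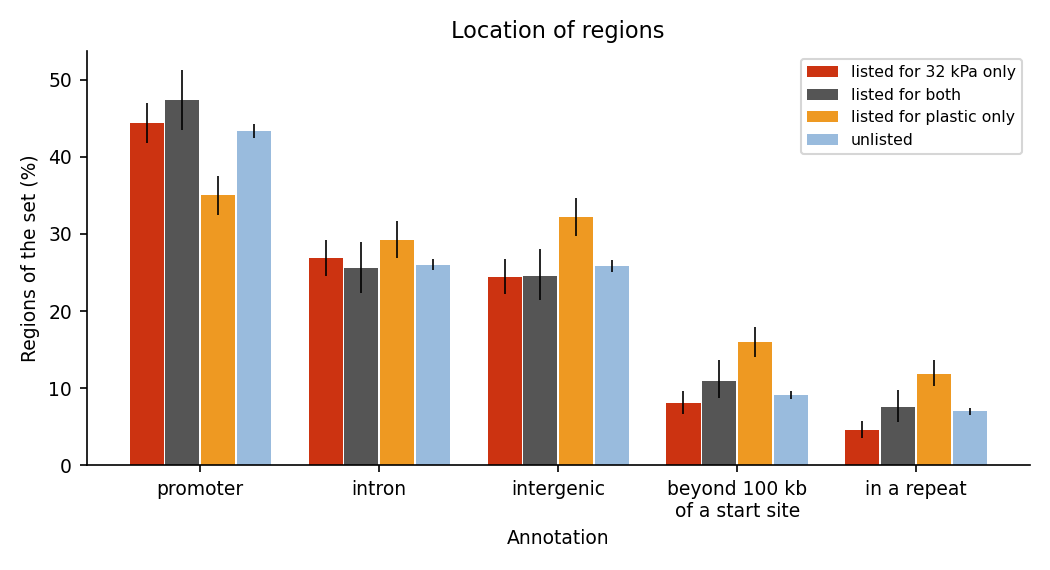
Share of regions (vertical axis, %) by deposited annotation, with exact 95% binomial intervals, for the regions listed for 32 kPa only, for both, for plastic only, and unlisted. Promoters make up 44.4% of the regions listed for 32 kPa only and 35% of those for plastic only, and repeats 4.58% and 11.9%.

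Promoter and distal regions differed in strength. Promoter regions had median levels of 5.36 on 0.2 kPa, 6.42 on 32 kPa and 6.22 on plastic, and intergenic regions 4.54, 5.68 and 5.36. The plastic shortfall against 32 kPa was a median of 0.23 at promoters, where 7.37% of regions were at least 0.5 lower on plastic, and 0.31 at intergenic regions, where 24.2% were. Level moved with this as well. Of the 365 weakest regions by 32 kPa level 27.9% were at least 0.5 lower on plastic, and of the 357 strongest 3.65%, and the part of level in the difference between promoters and distal regions was not tested.

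The 8 strongest promoters were those of Leprot, Arrdc4, Sertad2, Ripk2, Mgat1, Gatad2a, Zbtb5 and Xpo1, at 8.22 to 8.91 on 32 kPa. Their plastic levels were 8.00 to 8.86, at most 0.27 lower. Their levels on 0.2 kPa, 7.18 to 7.88, were above the 32 kPa level of most of the 1441 regions, whose upper quartile was 6.59.

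The regions named 1356 genes as nearest, of which 1274 had 1 region, 79 had 2 and 3 had 3. Of these genes, 154 (11.4%) also had a region in the plastic list elsewhere. Of 10898 genes with a region at or above 4.97 on 32 kPa, 16.3% had a region in the plastic list. A region of the 1441 cannot itself be in the plastic list, while any region of these 10898 genes counts. The lower share of 11.4% is therefore partly set by the choice, and nothing is read from it. The genes with 3 regions were Atp10a (a phospholipid flippase), Dut (the dUTPase) and Irf2bpl (a transcriptional regulator). The regions assigned to Dut lie 43.2 kb or more past its start, and 2 of them are in introns of Fbn1, the gene of fibrillin-1. The larger difference from soft of that pair, 71.0 kb past the start of Dut, was at 3.72 on 0.2 kPa, 5.55 on 32 kPa and 4.77 on plastic. The Irf2bpl promoter was at 5.77, 6.78 and 6.53, and plastic was 0.15 below 32 kPa at the shared interval. Within 10 kb of a region of the plastic list lay 47 of the 1441 regions (3.26%), near the share of the unlisted regions (3.53%).

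Of 10898 genes with a region at or above 4.97 on 32 kPa, 1332 (12.2%) had one of the 1441 regions, and the counts of gene lists stand beside that share. Counting regions within 10 kb of the start only, the share of all genes was 9.64% of 8658. Genes with more regions have more chances to be counted, and the lists were not matched for this. Of the contractile list, 5 of 27 measured genes had a region (18.5%), and 2 of 27 within 10 kb of the start. Actb, cytoplasmic actin, had one 14.2 kb before its start, at 5.80 on 0.2 kPa, 7.03 on 32 kPa and 6.74 on plastic. The promoter of Myh9, the heavy chain of nonmuscle myosin, was at 7.15, 8.18 and 8.13. That of Cnn3, a calponin, was at 6.09, 7.10 and 6.88. Palld, an actin cross-linker of stress fibres, had a pair of intron regions, the stronger difference at 3.53, 5.09 and 4.61. The other gene was Tpm4, a tropomyosin. Myh9 also had regions in the plastic list, 1 in both lists 40.0 kb away and 1 for plastic only 41.2 kb away.

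Matrix genes had 9 of 31 measured with a region (29.0%), and 2 of 24 within 10 kb of the start. They covered fibrillar collagen (Col1a2, Col5a2, Col5a3), basement membrane collagen (Col4a1, Col4a2), Col6a2, and the enzymes and chaperone that process collagen (Lox, P4ha1, Serpinh1). The Col1a2 region, 16.1 kb upstream (chr6:4489435-4489667), was at 4.14 on 0.2 kPa, 5.50 on 32 kPa and 4.99 on plastic. It lay 0.313 kb from another upstream region that both lists held. The Lox promoter, of the enzyme that cross-links collagen and elastin, was at 6.33, 7.42 and 6.98. P4ha1, a collagen prolyl hydroxylase, had a region at 4.61, 5.87 and 5.57. Over the 11 regions of the list the median excess over soft was 1.18 and plastic was lower than 32 kPa by a median of 0.34.

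Of the YAP/TAZ-TEAD list 8 of 28 had a region (28.6%), spread over regulators and targets. Among regulators, Wwtr1, which encodes TAZ, had an intron region at 4.50 on 0.2 kPa, 5.57 on 32 kPa and 5.03 on plastic, plastic being about midway. Tead1, the DNA-binding partner, had a pair of upstream regions, the one with the larger difference at 4.29, 5.56 and 5.16. The promoter of Vgll4, a competitor of YAP for TEAD, was at 5.24, 6.27 and 5.87, and that of Wwc2, an activator of the Hippo kinases that restrain YAP, at 5.71, 6.73 and 6.35. The Wwc2 region holds the 3 TEAD matches printed above. Among targets, Ctgf had a region annotated as 5′ UTR (chr10:24595341-24595935) at 5.74, 6.79 and 6.61. Crim1 had one at its promoter, at 5.12, 6.22 and 6.05, and Myof and Nuak2 had distal ones at 6.08 and 6.18 on 32 kPa. Within 10 kb of the start 4 of 24 genes had a region.

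The TGF-beta pathway had 8 of 29 (27.6%), from ligand to inhibitors, and 3 of 28 within 10 kb of the start. Tgfb1, the ligand, had an intron region at 4.73 on 0.2 kPa, 5.91 on 32 kPa and 5.81 on plastic, which was 0.22 below 32 kPa at the shared interval. The promoter of its type I receptor, Tgfbr1, printed above, was at 6.38, 7.49 and 7.30. The activin receptors Acvr1b and Acvr2a and the BMP effector Smad1 had distal regions 10.1 to 816 kb from the start. Among inhibitors, the Skil promoter was at 6.66, 7.84 and 7.45, an intron region of Ski at 4.98, 5.98 and 5.97, and a region 121 kb past the start of Bambi, a decoy receptor, at 4.72, 5.81 and 5.44. At Ski the stiff cultures were 0.01 apart.

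**Figure D4:**
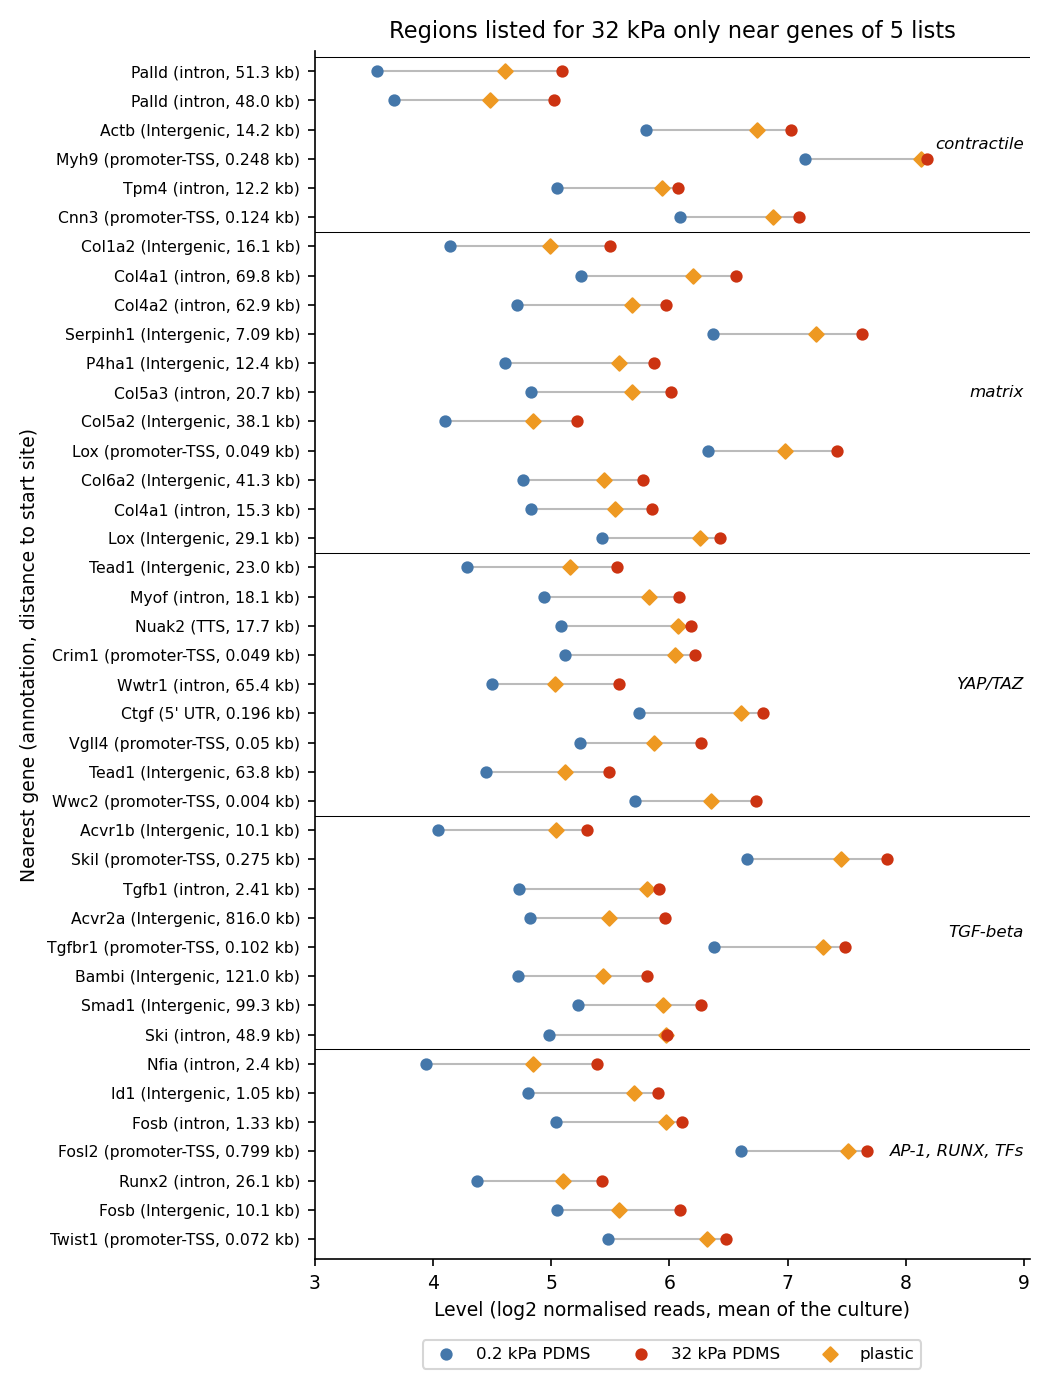
Mean level per culture (horizontal axis, log2 normalised reads) at the regions nearest genes of 5 lists, 1 row per region, with annotation and distance to the start site (an annotated intron can belong to a neighbouring gene). Blue circles are 0.2 kPa, red circles 32 kPa and orange diamonds plastic, and in every row plastic lies above 0.2 kPa and at or below 32 kPa, from 0.01 apart at Ski to 0.54 at Wwtr1, 1 region of Palld and Nfia.

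Transcription factors of the AP-1, RUNX and related list had 6 of 31 (19.4%), and 5 of 28 within 10 kb of the start. The promoter of Fosl2, an AP-1 subunit, was the strongest at 6.61 on 0.2 kPa, 7.67 on 32 kPa and 7.51 on plastic. Fosb, another subunit, had an intron region at 5.04, 6.11 and 5.97. Twist1, a mesenchymal regulator, had its promoter at 5.48, 6.48 and 6.32. Id1, an inhibitor of E proteins and a BMP target, was at 4.8, 5.90 and 5.70. An intron region of Runx2, the osteoblast regulator, was at 4.37, 5.43 and 5.10, with a plastic-only region 27.8 kb away in the same gene. Nfia had the largest excess over soft of the list, 1.46.

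Growth factor signalling had 5 of 19 (26.3%). Igf1r, the IGF receptor, had its promoter at 5.12 on 0.2 kPa, 6.18 on 32 kPa and 5.62 on plastic, and an intron region at 5.71, 6.80 and 6.56. Its ligand Igf1 had a region 140 kb upstream at 4.45, 5.54 and 5.27. The feedback inhibitors Spry2 and Spry4 had regions at 6.51, 7.56 and 7.32 and at 3.98, 5.32 and 4.71. Fgfr2 was the other gene. Proteases and their inhibitors had 4 of 20 (20%): the Mmp14 promoter, of a membrane-bound collagenase, was at 4.45, 5.58 and 5.44, with plastic 0.2 below 32 kPa at the shared interval. Timp3, a matrix-bound inhibitor, had an intron region at 4.10, 5.37 and 5.0, and was also the nearest start to a region in an intron of Syn3, at 5.4, 6.51 and 5.90. Within 10 kb of the start, growth factor genes had 2 of 14 and protease genes 1 of 17. Adam12 and Adamts2, the procollagen peptidase, had intron regions.

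Cell cycle genes had 3 of 26 (11.5%), near the share of all genes, and 3 of 24 within 10 kb of the start. All 3 regions were promoters. They were Pcna, the sliding clamp of replication (5.70 on 0.2 kPa, 6.91 on 32 kPa, 6.63 on plastic), Ccne1, cyclin E (5.93, 7.08 and 6.90), and Ccnd3, a D-type cyclin (5.13, 6.18 and 6.0). Integrin and adhesion genes also had 11.5%, 3 of 26, and 1 of 17 within 10 kb: Itgb8, which takes part in TGF-beta activation, Pdlim5 and Tns1. The Pdlim5 promoter was at 5.43, 6.54 and 6.11. Wnt genes had 2 of 22, and 0 of 17 within 10 kb of the start. The Sfrp1 region was intergenic, 42.7 kb from the start, and the Wnt5a region lay 57.7 kb away in an intron of Erc2. Heterochromatin genes had 1 of 20 (the Dnmt1 promoter, at 4.76, 5.75 and 5.19), and the prostaglandin, cAMP and antifibrotic list 0 of 13. Inflammatory genes had 4 of 16 (25%), and 2 of 13 within 10 kb of the start, with an intron region of Il1rl1, the IL-33 receptor, the strongest at 6.24, 7.35 and 7.18.

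Of the fibroblast identity list 4 of 17 had a region (23.5%), and 0 of 9 within 10 kb of the start. Sfrp1 was at 3.70 on 0.2 kPa, 5.03 on 32 kPa and 4.45 on plastic. Thy1, a surface marker of fibroblasts, had a region 58.9 kb upstream at 4.42, 5.59 and 5.59, and plastic was 0.02 below 32 kPa at the shared interval. The Cd36 region shows the limit of reading levels across tables. Its plastic level was 4.30, under its soft level of 4.34, but came from an interval covering 55.3% of it, and added folds gave plastic 0.73 above soft.

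The labelled cell type was checked at promoters of marker genes in the deposited table of plastic against 32 kPa. Fibroblast markers had a promoter region at 8 of 9 genes, from 3.76 to 6.14 on 32 kPa, including Col1a1, Col1a2, Pdgfra and Tcf21. Epithelial markers had one at 3 of 13 (Foxj1, Hopx, Krt19; 3.72 to 5.0), endothelial at 2 of 11 (Kdr and Tek; 3.08 to 3.13), leukocyte at 1 of 10 (Lyz2, 5.01), and pericyte, smooth muscle and mesothelial at 2 of 11 (Cnn1 and Myh11; 4.47 to 5.25). Epcam, Cdh1, Sftpc, Pecam1, Cdh5 and Ptprc had none. Among the 1441 regions, marker genes of other cell types had distal ones only: Hopx, Upk3b and Wt1. Those of fibroblast markers were distal as well: Col1a2 (16.1 kb upstream) and Thy1 (58.9 kb upstream). The Upk3b region was at 3.82 on 0.2 kPa, 5.39 on 32 kPa and 4.57 on plastic. The part of other cells in the results was not tested.

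Sequence was compared at 500 of the 1441 regions that covered at least 50% of a 300-base promoter window, 479 of them among the 640 annotated promoters. Their median GC content was 64.8%, against 63.3% at 4601 windows of unlisted regions and 52.7% at all 32817 windows, so open promoters were GC-rich whether listed or not. The SP/KLF letters were in 61.4% (57.0 to 65.7%) of the 500 windows, 57.7% of unlisted and 25.6% of all. ETS letters (CCGGAAGT) were in 11.8% (9.11 to 15.0%), 9.37% and 3.89%. YY1 letters (AAGATGGC) were in 6.0%, 4.89% and 2.74%. These letters were thus more frequent in open promoters, listed or not, than over all windows. NRF1 letters (GCGCATGCG) were less frequent in the 500 windows than in unlisted ones, at 2.60% and 4.02%, against 1.75% of all.

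The letters of factors tied to stiffness were in shares near or below those of the unlisted windows. TEAD letters were in 10.0% (7.51 to 13.0%), against 11.1% of unlisted and 14.7% of all windows. RUNX letters were in 11.2%, 10.9% and 16.8%. AP-1 letters (TGAGTCA) were in 7 of 500 windows (1.40%, 0.565 to 2.86%), 4.0% of unlisted and 5.20% of all. They were in 2.93% (1.19 to 5.94%) of the windows listed for both and 2.62% (1.26 to 4.76%) of those for plastic only. CArG boxes, the SRF site, were in 3 of 500 (0.600%, 0.124 to 1.74%), 1.48% and 1.63%. The distal regions, where such sites often lie, were not searched.

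**Figure D5:**
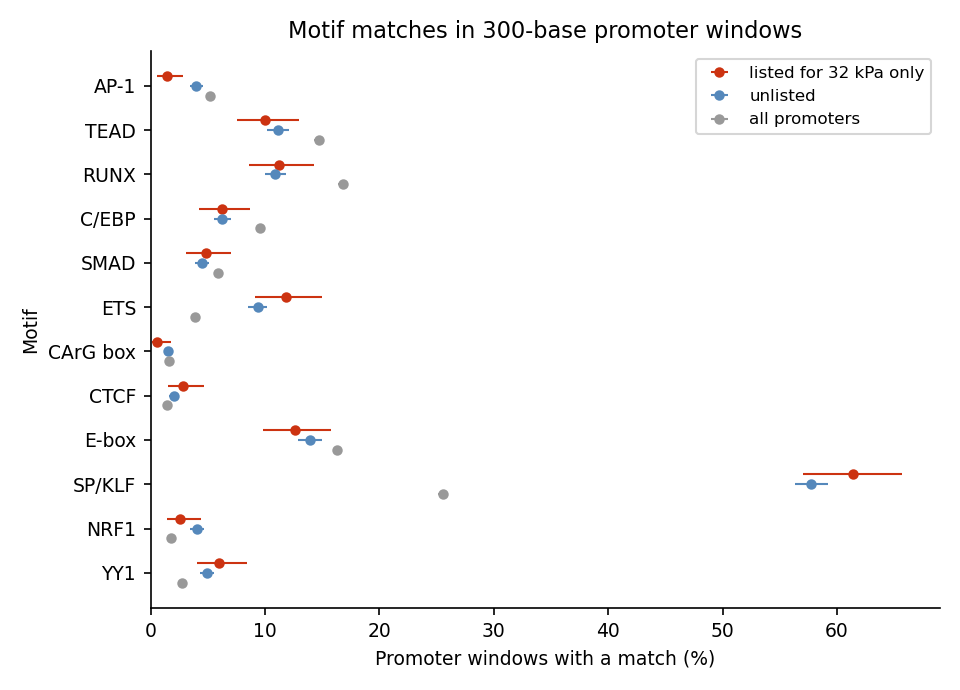
Share of 300-base promoter windows with a match on either strand (horizontal axis, %) for 12 motifs (vertical axis), with exact 95% binomial intervals, at regions listed for 32 kPa only, at unlisted regions and at all promoters. SP/KLF stands at 61.4%, 57.7% and 25.6%, and AP-1 at 1.40%, 4.0% and 5.20%.

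MicroRNA genes were nearest to 25 regions (1.73%), 8 of them within 5 kb, and the share over unlisted regions was not counted. The mature sequences of 3 are shown to name the products of the nearby genes, with the seed (bases 2 to 8) in capitals, from RefSeq (GRCm38.p6). They were chosen after their values were seen.
mmu-miR-99b-5p (chr17:17830194-17830215, plus strand): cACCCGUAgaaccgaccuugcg
mmu-miR-125b-5p (chr16:77646279-77646300, plus strand): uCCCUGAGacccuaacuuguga
mmu-miR-350-3p (chr1:176772342-176772363, minus strand): uUCACAAAgcccauacacuuuc
None of the 3 shares a seed with another. The region 3.1 kb before Mir99b (chr17:17826764-17827407) was at 6.32 on 0.2 kPa, 7.38 on 32 kPa and 7.08 on plastic, which was 0.16 below 32 kPa at the shared interval. That 1.75 kb before Mir125b-2 (chr16:77644409-77644637) was at 4.18, 5.29 and 5.0, and that 2.39 kb before Mir350 (chr1:176774654-176774975) at 3.89, 5.32 and 4.87. The Mir350 region lies in an exon of Cep170. All 3 had plastic between the silicones and nearer to 32 kPa. The choice of regions favours plastic below 32 kPa, so nothing is read from this order. The tables hold accessibility, and the levels of these microRNAs were not measured here.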

How the data were processed

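Omni-ATAC-seq regions of 3 cultures with 2 libraries each were taken from 3 deposited tables. The build mm10 and, without versions, the tools BWA, MACS2, Picard and DiffBind come from the submitters' processing notes. Scaling of libraries, merging of peaks and shifting of reads are not given in the sources used. Per the file headers, levels are deposited log2 means of a culture and folds are log2 differences of them. The p-value and FDR of each region are the authors', as deposited. Depth is unknown, and no value per library was in the tables used here, so no spread between libraries and no test over libraries can be given. If libraries of a culture share an animal, the authors' p-values measure technical spread.

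The table sides called Control and Treat were identified at 643 identical intervals, where Control equalled the named 32 kPa level, and at 653 where it lay 0.01 to 0.02 above plastic. Control was read as the stiffer culture. Overlap meant at least 1 bp. Plastic levels came from a match covering 50% or more of each interval, which 2 regions (near Triqk and Suclg1) lacked. At 36 regions the 32 kPa level differed by over 0.1 between tables, so added folds are also given. 1 repeated header row was dropped. Gene names, distances and annotation are the deposited ones, by nearest start site. A region may act on another gene.

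The regions and the 14 gene lists and 5 marker lists were chosen with earlier results of these data known. Named were the 10 highest folds, the 10 largest and 10 smallest excesses of 32 kPa over plastic, the 8 lowest FDRs, genes with 3 or more regions, up to 6 genes per list by fold, the 5 regions nearest each fold limit and the 8 strongest promoters, and a selection of these is printed. More than 5 regions tied at each fold limit, so not all of the tied regions are named. A gene counts as measured when a region of it reached 4.97 on 32 kPa. Motif letters were to be searched in the regions themselves, but the reference tables held promoter windows only, so 300-base windows (250 before to 50 after a start site, GRCm38.p6) were searched for 13 motifs on both strands. The full NF1 site was in 0 of the 500 windows, 0.0217% of unlisted and 0.0366% of all. In the 500, the unlisted and all windows in turn, C/EBP (TTGCNNNAA) was in 6.20%, 6.26% and 9.57%, SMAD (GTCTAGAC or GTCTGNCT) in 4.80%, 4.50% and 5.85%, the E-box CAGCTG in 12.6%, 13.9% and 16.3%, the CTCF core CCACNAGGG in 2.80%, 2.02% and 1.45%, and NRF1 (GCGCATGCG) in 2.60%, 4.02% and 1.75%. Binomial intervals are exact (Clopper-Pearson, 95%). Interval matching was tested on simulated data. Software was scipy 1.17.1, numpy 2.4.6 and pandas 2.3.3 in Python 3.11.15, with matplotlib 3.10.9 for figures.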

Additional observations from a re-analysis of the deposited data

How the results depend on the processing

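The number of regions was 1446 when overlap with the plastic list needed 50% of both lengths and 1422 when that list was widened by 1 kb, against 1441. It was 458 at an FDR under 0.01 and 368 at a fold of at least 1.2. The promoter share of 44.4% became 66.4% and 19.8% under those limits. The median excess of plastic over 0.2 kPa, 0.86, was 0.93 at a fold of at least 1.2 and 0.82 at identical intervals, the latter an alternative chosen after seeing the data, and 0.85 to 0.86 under the others. Adding folds, also chosen after seeing the data, gave 166 in place of 194 regions with plastic at least 1 above soft. Genes of the lists with a region fell from 61 to 26 within 10 kb of a start site, where the rule leaves out the more distant regions. Other causes were not tested. No paired analysis was possible because the tables hold 1 mean per culture, and for the same reason no library could be left out.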
